A study of Homo sapiens with 8 samples.

Results

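The human ZNF genes are the largest group of zinc finger genes, named by a common symbol and a number, and 241 of them were described here in 2 osteosarcoma cell lines, 143B and HOS. They were chosen by symbol and level: listed for both lines, and reaching 1 FPKM in 2 or more of a line's 4 libraries. FPKM is a count of sequenced fragments divided by transcript length and by the size of the library. For 143B 340 ZNF symbols were listed and for HOS 396, and 312 were listed for both, among 11807 genes in all. Of these 312, 54 were under the limit in 143B only, 7 in HOS only and 10 in both lines. Just inside the limit stood ZNF398, with 0.64 and 1.01 FPKM in sgNAT10 143B cells and 0.62 and 1.15 FPKM in NC 143B cells, and just outside it ZNF440, with 1.05 and 0.98 FPKM in sgNAT10 143B cells and 0.59 and 0.61 FPKM in NC 143B cells.

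Polyadenylated RNA had been sequenced from cells labelled sgNAT10, which carried a guide RNA against NAT10, and from cells labelled NC, a control, in each line. The 4 groups (sgNAT10 and NC 143B cells, sgNAT10 and NC HOS cells) held 2 libraries each. HOS is an osteosarcoma line and 143B was derived from it, and NAT10 is the enzyme that acetylates cytidine in ribosomal, transfer and messenger RNA. The labels give no clone, guide sequence or time, nor whether a group's libraries are separate cultures, so the p-values rest on a spread between libraries that may be technical only.

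ZNF proteins bind DNA, and some bind RNA, through fingers in which a pair of cysteines and a pair of histidines hold a zinc ion. Many carry a KRAB domain at the start of the protein, which recruits the corepressor TRIM28 and through it the histone methyltransferase SETDB1, and such KRAB zinc finger proteins are known for silencing transposable elements and imprinted loci. KRAB genes multiplied by duplication and lie in clusters, many of them on chromosome 19, while ZNF genes without KRAB include conserved transcription factors, ribosome factors and RNA-binding proteins.

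Sums of the listed FPKM ranged over 484793 to 798137 among libraries, and as the number of reads behind them is unknown, no counting error is given. NAT10 had 9.05 and 7.19 FPKM in sgNAT10 143B cells, against 16.06 and 19.95 FPKM in NC 143B cells (log2 change -1.06, adjusted p = 0.0259). In HOS it had 21.13 and 19.14 FPKM in the libraries labelled sgNAT10, against 14.86 and 16.22 FPKM in NC (log2 change 0.35, adjusted p = 0.00544), so NAT10 was not lower in HOS under that label, and every HOS direction below is that of the libraries labelled sgNAT10. Changes are log2 differences of FPKM + 1, sgNAT10 minus NC, tested across all genes with limma at an adjusted p of 0.05. Of 8 bone and connective tissue markers 5 were tested in 143B, and 4 of them fell there, ALPL (log2 change -1.89), VIM (-1.33), SPARC (-1.30) and COL1A1 (-1.11). In HOS 7 were tested and 4 rose. SP7 was listed in neither line, COL1A2 was not listed in 143B and RUNX2 was under the test limit there. Of markers of other cells, none of 4 blood genes was listed, and CDH1, KRT5, KDR and GFAP were not listed either. EPCAM, an epithelial gene, had 18.66 and 20.53 FPKM in sgNAT10 HOS cells and 18.18 and 15.59 FPKM in NC HOS cells, and the endothelial genes CDH5 and PECAM1 and the neural genes SYP and RBFOX3 were at or under 5.51 FPKM in every library that listed them. The part of these markers in the ZNF changes was not tested. In such bulk RNA, fewer cells of a type and less RNA per cell cannot be told apart.

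The coding sequences of the annotation showed what these genes share apart from their names. A finger pattern was found in 236 of the 241, with a median of 9 fingers and a highest count of 33 in ZNF462, and none in ZNF330, ZNF503, ZNF703, ZNF738 and ZNF839. A KRAB A box, matched in at least 10 of 12 conserved places, was found in 117 genes, of which 81 matched all 12. The box was matched in part, in 7 to 9 places, in 7 genes (ZNF212, ZNF213, ZNF263, ZNF394, ZNF446, ZNF473 and ZNF496), and was not matched in the remaining 117. The KRAB genes had a median of 11 fingers and a median transcript GC content of 44.9%, and 57 lay on chromosome 19. Those without KRAB had a median of 7 fingers and a GC content of 52.4%, and 24 lay on chromosome 19. KRAB genes were also the lower expressed class: the median of their mean FPKM was 1.72 in 143B and 3.25 in HOS, against 5.04 and 7.88 for genes without KRAB.

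In 143B, 56 of the 241 ZNF genes rose and 34 fell in sgNAT10 cells, while 151 did not pass the test. Of all 11419 genes tested in 143B, 12.9% rose and 25.4% fell. The KRAB genes supplied most of the rises: 42 of 117 rose and 6 fell, and their median log2 change was 0.57, against -0.25 over all genes tested. Of the 117 genes without KRAB, 14 rose and 25 fell, with a median of -0.29. The KRAB counts and median are smaller among genes that reached 1 FPKM in both labels of both lines: 14 of 77 KRAB genes (18.2%) rose and 4 (5.19%) fell, with a median of 0.37, where 9.86% of the 9849 such genes rose and 22.5% fell, with a median of -0.23. Of the 7 partial matches 3 fell. These medians are read against that of all genes because a scaling moves both: with the libraries scaled by median ratios the median of all 143B genes was -0.02, and 97 ZNF genes rose and 32 fell. Of all 143B genes 20.7% rose and 22.3% fell with that scaling. The median of the KRAB genes stood 0.82 above that of all genes as deposited, 0.77 above it after median-ratio scaling, 0.92 above it with the sums made equal, 0.75 above it after quantile normalization and 0.56 above it after changes were corrected for transcript length and GC content. Each of these includes the 34 KRAB genes that passed the limit in 143B through sgNAT10 alone, which as deposited had to be higher there. No scaling was run on only the genes that reached it in both labels of both lines.

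**Figure D1:**
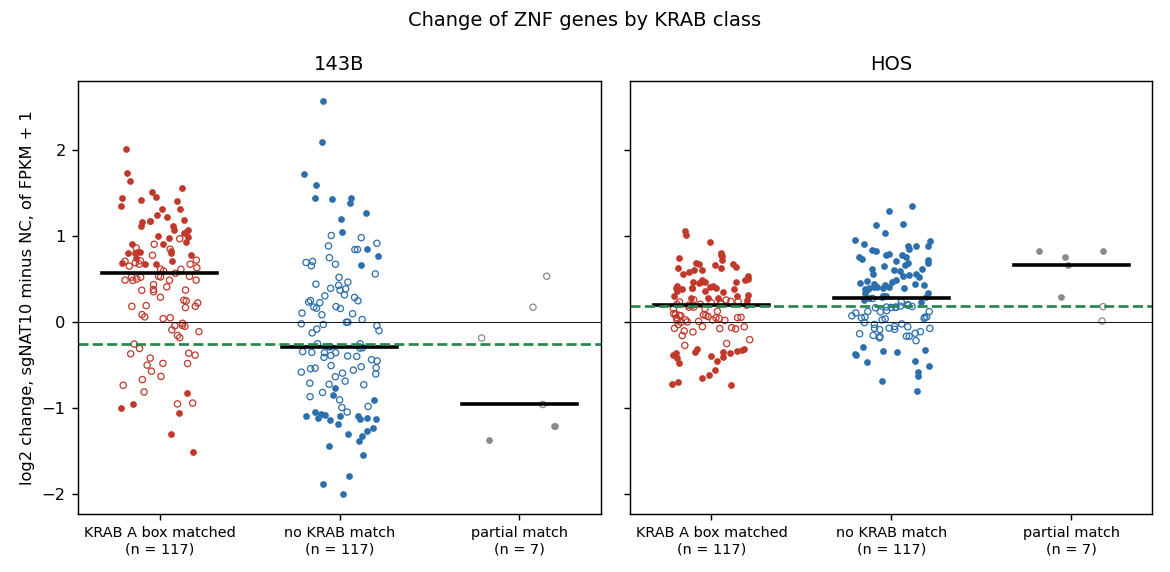
Log2 change (sgNAT10 minus NC, of FPKM + 1) of each ZNF gene by KRAB class, in 143B (left panel) and HOS (right panel). Filled points passed the test, open points did not, black bars are class medians, and the dashed green line is the median of all genes tested in the line. The KRAB median was 0.57 in 143B, far from the line at -0.25, and 0.20 in HOS, next to the line at 0.19. The KRAB genes include 34 that passed the limit in 143B through sgNAT10 alone and had to be higher there. In HOS 11 KRAB genes did so.

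In single libraries, the median KRAB gene had 2.04 and 2.31 FPKM in sgNAT10 143B cells, against 0.84 and 1.47 FPKM in NC 143B cells. These levels include the 34 KRAB genes that reached 1 FPKM in sgNAT10 alone in 143B, which had to be higher there. Over the 77 KRAB genes that reached it in both labels of both lines, the median gene had 2.43 and 2.84 FPKM in sgNAT10 143B cells, against 1.15 and 2.03 FPKM in NC 143B cells, so the labels did not overlap, while the NC libraries differed from each other by more than the sgNAT10 libraries did. Summed over those 77 genes, FPKM came to 292 and 311 in sgNAT10 143B cells and 253 and 295 in NC 143B cells, and the labels overlapped. Summed over all 117 KRAB genes, FPKM came to 362 and 384 in sgNAT10 143B cells, against 279 and 332 in NC 143B cells. The median gene without KRAB had 4.25 and 5.03 FPKM in sgNAT10 143B cells and 5.02 and 6.01 FPKM in NC 143B cells, and here the libraries of the labels overlapped.

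Low levels and the limit of 1 FPKM touch these counts. In 143B, 38 ZNF genes, 34 of them KRAB, passed the limit through the sgNAT10 libraries alone, and 31 of those 38 were among the rises, while 3 passed through NC alone. Such genes had to be higher in sgNAT10 cells. Among all tested 143B genes, 508 passed through sgNAT10 alone and 689 through NC alone. Of the 143 ZNF genes with a mean of at least 2 FPKM over the 4 libraries, 21 rose and 31 fell, where 11.0% of the 9346 genes with such a mean rose and 25.8% fell. The 43 KRAB genes among them had 12 rises and 5 falls and a median of 0.49, and the 94 without KRAB had 9 rises and 23 falls and a median of -0.35. At a limit of 5 FPKM only 92 ZNF genes were left, with 11 rises and 30 falls and a median of -0.40. Of all 7199 genes left at that limit 12.8% rose and 29.8% fell, with a median of -0.30. For the counts that follow, with 1 library left out, no share of all genes was computed. The 56 rises were 34 without sgNAT10 replicate 1, 22 without sgNAT10 replicate 2 and 89 without NC replicate 2, and the 34 falls were 11 and 6 without sgNAT10 replicates 1 and 2. KRAB rises were 25 and 15 without sgNAT10 replicates 1 and 2.

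The change also went with base composition. Over all genes tested in 143B the median log2 change was 0.22 for transcripts under 40% GC and -0.72 at 55% or more. KRAB genes followed the same slope from a higher start, with medians of 0.79 in 22 genes under 40% GC, 0.69 in 38 genes at 40 to 45%, 0.53 in 30 genes at 45 to 50%, -0.04 in 9 genes at 50 to 55% and -0.58 in 18 genes at 55% or more. Under 50% GC the genes without KRAB also lay above all genes, with medians of 0.37 in 15 genes under 40%, 0.31 in 23 genes at 40 to 45% and 0.85 in 11 genes at 45 to 50%, against 0.22, 0.11 and -0.11 over all genes. At 50 to 55% and at 55% or more their medians were -0.53 in 16 genes and -0.60 in 52 genes. Of the 27 KRAB genes with at least 50% GC, 3 rose and 5 fell. Of the 68 genes without KRAB in that range, 1 rose and 25 fell. In HOS the slope of all genes ran the other way, with medians of -0.18 under 40% GC and 0.34 at 55% or more. Transcript length and GC content were corrected together, and the part of base composition alone was not tested. After that correction 57 KRAB genes rose and 6 fell in 143B, and 39 genes without KRAB rose and 18 fell, where 26.6% of all genes rose and 27.6% fell. These counts and the 143B medians by GC content include the genes that passed the limit there through sgNAT10 alone. Those were 34 KRAB genes and 4 without KRAB, which as deposited had to be higher in sgNAT10 cells.

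**Figure D2:**
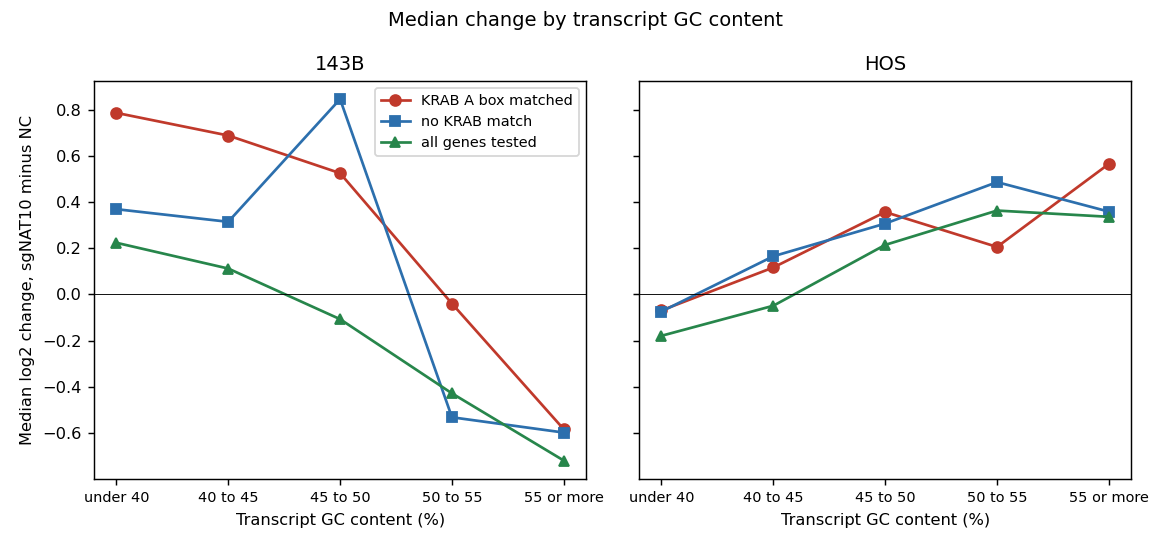
Median log2 change (sgNAT10 minus NC) in 5 ranges of transcript GC content, in 143B (left panel) and HOS (right panel), for KRAB genes, genes without KRAB and all genes tested. In 143B the medians of KRAB genes lay at 0.79 in the lowest range and -0.58 in the highest, against 0.22 and -0.72 for all genes, and the genes without KRAB lay above all genes in the 3 ranges under 50%. The KRAB genes include 34, and those without KRAB 4, that passed the limit in 143B through sgNAT10 alone. In HOS these were 11 and 1.

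Of single genes, ZNF281 changed most in 143B. This factor of GC-rich promoters, known from pluripotency and epithelial-mesenchymal transition, had 23.42 and 26.19 FPKM in sgNAT10 143B cells, against 2.29 and 4.72 FPKM in NC 143B cells (log2 change 2.57, SE 0.36, adjusted p = 0.00195). ZNF131, a factor with a BTB domain, had 15.8 and 20.17 FPKM in sgNAT10 143B cells, against 2.06 and 5.39 FPKM in NC 143B cells (log2 change 2.09, adjusted p = 0.0056). Neither carries a KRAB match. ZNF827, which brings the NuRD complex to telomeres kept by recombination, had 6.18 and 5.39 FPKM in sgNAT10 143B cells, against 0.90 and 1.23 FPKM in NC 143B cells (log2 change 1.72, adjusted p = 0.00377). ZNF106, whose mouse counterpart is an RNA-binding protein needed by motor neurons, had 12.72 and 12.18 FPKM in sgNAT10 143B cells, against 2.36 and 4.91 FPKM in NC 143B cells (log2 change 1.59, adjusted p = 0.0115), and its adjusted p was 0.0957 without sgNAT10 replicate 1 and 0.0846 without sgNAT10 replicate 2.

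The KRAB genes with the largest rises in 143B were ZNF791, ZNF426, ZNF844 and ZNF268. ZNF791 had 8.58 and 8.4 FPKM in sgNAT10 143B cells, against 0.86 and 1.97 FPKM in NC 143B cells (log2 change 2.01, SE 0.36, adjusted p = 0.00387). ZNF426 had 9.11 and 9.59 FPKM in sgNAT10 143B cells, against 1.93 and 2.32 FPKM in NC 143B cells (log2 change 1.73, adjusted p = 0.00496, or 0.0668 without sgNAT10 replicate 2). In each of these genes both sgNAT10 libraries lay above both NC libraries, with little spread between the sgNAT10 libraries. ZNF844 had 2.97 and 3.80 FPKM in sgNAT10 143B cells, against 0.42 and 0.39 FPKM in NC 143B cells (log2 change 1.64, adjusted p = 0.00228), and so passed the limit through sgNAT10 alone. ZNF268 had 4.05 and 4.97 FPKM in sgNAT10 143B cells, against 0.59 and 1.18 FPKM in NC 143B cells (log2 change 1.56, adjusted p = 0.00506). In GENCODE 29, used here for gene positions, the gene of ZNF791 lies within that of ZNF490, another KRAB gene on the opposite strand. From their RefSeq starts on chromosome 19 the genes instead run away from each other, so the overlap depends on the annotation. Without strand information in the sources used here, reads of any stretch the genes share cannot be told apart. How many reads the pair shared was not tested. ZNF490 had 3.30 and 3.15 FPKM in sgNAT10 143B cells and 0.50 and 0.70 FPKM in NC 143B cells (log2 change 1.40, adjusted p = 0.00369).

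The falls in 143B were led by ZNF697, with 1.89 and 2.91 FPKM in sgNAT10 143B cells, against 8.87 and 17.28 FPKM in NC 143B cells (log2 change -2.0, SE 0.40, adjusted p = 0.00615). ZNF672 had 3.47 and 2.96 FPKM in sgNAT10 143B cells, against 15.12 and 13.88 FPKM in NC 143B cells (log2 change -1.88, adjusted p = 0.00362). ZNF385A, a partner of p53, had 5.0 and 3.51 FPKM in sgNAT10 143B cells, against 18.61 and 15.56 FPKM in NC 143B cells (log2 change -1.79, adjusted p = 0.00452). None of the 3 had overlapping labels, and none carries a KRAB match. ZNF598, the ubiquitin ligase that marks collided ribosomes, had 22.33 and 17.41 FPKM in sgNAT10 143B cells, against 56.32 and 53.98 FPKM in NC 143B cells (log2 change -1.44, adjusted p = 0.00404). ZNF646 (-1.55), ZNF584 (-1.51), ZNF513 (-1.38) and ZNF496 (-1.37) also fell on the log2 scale, ZNF584 being the only KRAB gene among the 8 largest falls. Each of these 4 calls was lost without either sgNAT10 library, with adjusted p between 0.0526 and 0.151. ZNF646 and ZNF513 overlap PRSS53 and SNX17 on the opposite strand.

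**Figure D3:**
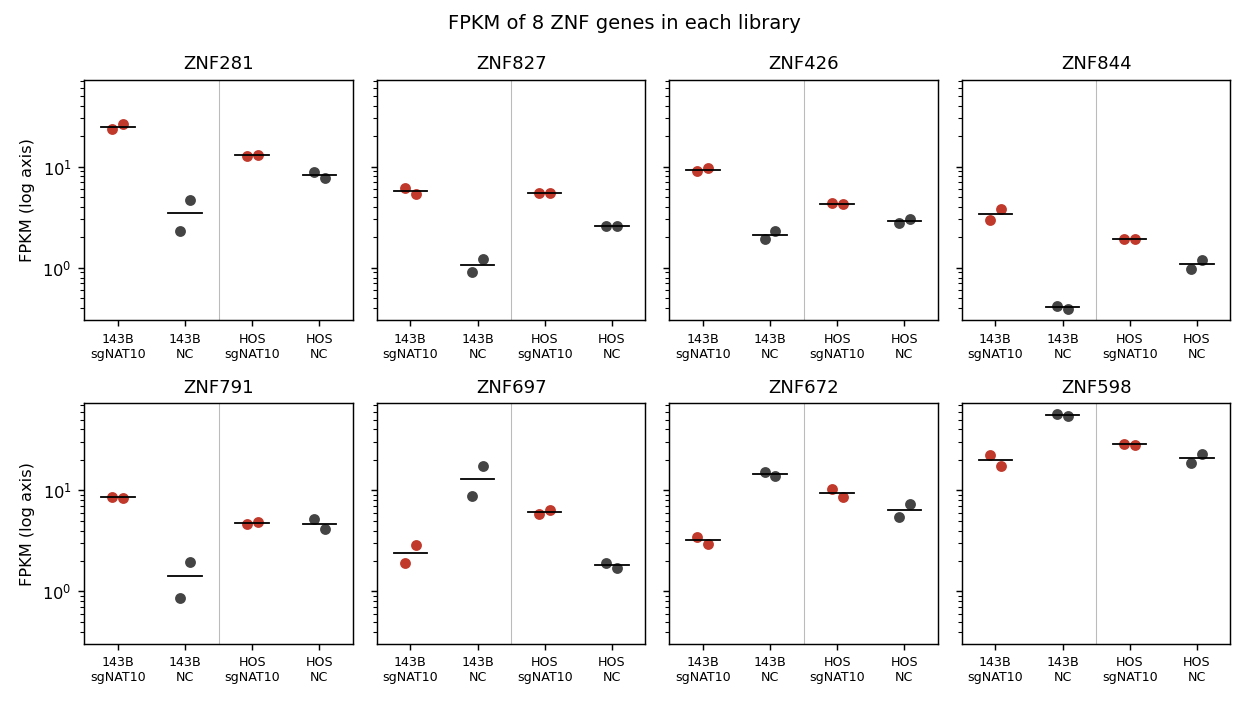
FPKM (log axis) of 8 ZNF genes in each library, with points for libraries and bars for means, sgNAT10 in red and NC in grey. ZNF281, ZNF827, ZNF426 and ZNF844 lie higher in sgNAT10 than in NC in both lines, ZNF791 only passed the test in 143B, and ZNF697, ZNF672 and ZNF598 lie lower in 143B and higher in HOS.

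The start regions of 5 of these genes, chosen after their values were seen, are shown as examples of genes that rose and genes that fell in 143B, with and without the motif letters searched. Each runs from 250 bases before to 50 bases after the start of the gene in RefSeq (GRCh38.p14), is written 5′ to 3′ on the strand of the gene, and has in capitals the letters of any of 4 motifs searched on both strands.
ZNF281 (chr1:200409987-200410286, minus strand): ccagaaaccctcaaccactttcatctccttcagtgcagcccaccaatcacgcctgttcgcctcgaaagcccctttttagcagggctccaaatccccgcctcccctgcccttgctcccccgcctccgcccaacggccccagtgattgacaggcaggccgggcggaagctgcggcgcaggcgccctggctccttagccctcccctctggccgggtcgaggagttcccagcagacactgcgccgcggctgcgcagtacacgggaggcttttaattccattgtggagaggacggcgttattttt
ZNF791 (chr19:12610670-12610969, plus strand): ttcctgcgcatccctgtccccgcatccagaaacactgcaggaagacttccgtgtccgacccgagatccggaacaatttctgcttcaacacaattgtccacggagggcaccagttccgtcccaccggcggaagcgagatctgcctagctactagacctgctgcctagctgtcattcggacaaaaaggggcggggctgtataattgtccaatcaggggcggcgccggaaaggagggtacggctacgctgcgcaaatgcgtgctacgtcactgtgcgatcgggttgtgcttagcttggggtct
ZNF268 (chr12:133181245-133181544, plus strand): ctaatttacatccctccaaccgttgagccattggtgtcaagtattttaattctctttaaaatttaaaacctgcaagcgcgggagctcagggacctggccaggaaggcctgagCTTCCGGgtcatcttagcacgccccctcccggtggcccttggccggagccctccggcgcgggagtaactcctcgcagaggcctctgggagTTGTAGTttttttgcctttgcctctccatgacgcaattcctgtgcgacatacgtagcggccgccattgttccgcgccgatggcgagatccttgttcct
ZNF697 (chr1:119648217-119648516, minus strand): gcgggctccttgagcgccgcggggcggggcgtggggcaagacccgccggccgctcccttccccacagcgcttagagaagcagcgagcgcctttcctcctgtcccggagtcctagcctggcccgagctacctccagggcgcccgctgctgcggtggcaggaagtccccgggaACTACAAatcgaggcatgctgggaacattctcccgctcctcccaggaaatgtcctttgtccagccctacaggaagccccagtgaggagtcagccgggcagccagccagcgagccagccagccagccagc
ZNF646 (chr16:31074172-31074471, plus strand): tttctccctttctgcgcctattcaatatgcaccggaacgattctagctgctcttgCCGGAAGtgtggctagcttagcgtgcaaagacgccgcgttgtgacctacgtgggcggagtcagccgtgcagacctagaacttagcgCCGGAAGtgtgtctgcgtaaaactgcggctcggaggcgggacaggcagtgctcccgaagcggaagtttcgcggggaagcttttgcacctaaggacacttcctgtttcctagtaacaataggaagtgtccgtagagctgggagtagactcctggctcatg
The windows of ZNF281 and ZNF791 hold none of the motifs. That of ZNF791 shares 206 bases with the window of ZNF490, which starts in the other direction. The window of ZNF268 holds 1 ETS and 1 ZNF143 match, that of ZNF697 1 ZNF143 match and that of ZNF646 2 ETS matches, so such letters stood before genes that rose and before genes that fell in 143B.

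Over the 209 ZNF genes with a RefSeq start region, the ETS letters CCGGAAG stood in 42.6% of the windows. They stood in 50.5% of the 103 KRAB windows and in 34.7% of the 101 windows of genes without KRAB, against 21.0% of 8482 windows of genes tested in both lines and 10.7% of all 27305 windows. The ZNF143 letters ACTACAA stood in 7.18% of the ZNF windows, against 4.10% of tested genes and 2.95% of all. The YY1 letters AAGATGGC stood in 4.78% of the ZNF windows, against 6.02% of tested genes and 3.03% of all, and the CREB letters TGACGTCA in 4.78%, against 3.61% and 1.98%. The ETS and YY1 letters can share AAG where they meet. The median GC content of the windows was 63.3% for ZNF genes and 66.0% for tested genes.

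In HOS, 113 of the 241 ZNF genes rose and 33 fell in the libraries labelled sgNAT10. Of all 11957 genes tested in HOS, 45.5% rose and 23.0% fell, so the share of rises was near that of all genes and the falls were fewer. The median log2 change of the ZNF genes was 0.23, against 0.19 over all genes tested, and 47 KRAB genes rose and 20 fell with a median of 0.20. Of the genes without KRAB, 61 rose and 13 fell, with a median of 0.28. The KRAB genes include 11 that passed the limit in HOS through sgNAT10 alone and had to be higher there. Of the 77 KRAB genes that reached 1 FPKM in both labels of both lines, 26 (33.8%) rose and 17 (22.1%) fell. Their median was 0.08. Of the 111 such genes without KRAB, 57 (51.4%) rose and 12 (10.8%) fell, with a median of 0.27. Of all 9849 such genes 45.1% rose and 24.2% fell. The split of calls followed the scaling: with median-ratio scaling 72 ZNF genes rose and 56 fell, with equal sums 154 and 14, after quantile normalization 60 and 63, and after the length and GC correction 68 and 60. The shares of all genes moved too: 31.5% rose and 33.8% fell with median-ratio scaling, and 59.2% and 14.2% with equal sums. They were 32.5% and 31.8% after quantile normalization, and 31.6% and 33.5% after the length and GC correction. With a spread shared by both lines 42 ZNF genes rose and 2 fell, against 14.7% and 2.83% of all genes. Such shares were not computed with a library left out. Relative to the median of all genes, the ZNF median lay between -0.02 and 0.06 under the 4 scalings, and the 12 genes that passed the limit in HOS through sgNAT10 alone held 10 of the rises. Falls numbered 18 and 19 without sgNAT10 replicates 1 and 2.

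The largest HOS rise was again ZNF697, in the other direction to 143B, with 5.89 and 6.45 FPKM in sgNAT10 HOS cells, against 1.90 and 1.72 FPKM in NC HOS cells (log2 change 1.35, SE 0.11, adjusted p = 5.47e-08). ZNF296, a partner of Klf4 in mouse reprogramming, had 8.33 and 6.70 FPKM in sgNAT10 HOS cells, against 2.38 and 2.54 FPKM in NC HOS cells (log2 change 1.29, adjusted p = 1.53e-07). ZNF609 (1.14), ZNF703 (1.13), ZNF445 (1.06), ZNF516 (1.03), ZNF746 (1.01) and ZNF462 (0.95) followed on the log2 scale. ZNF703 is a corepressor amplified in breast cancer, ZNF445 guards imprinted loci, Zfp516 drives brown fat genes in mice, and ZNF746 is the parkin substrate PARIS. ZNF445 and ZNF746 are the KRAB genes of this group.

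Falls in HOS were smaller. ZNF32 had 10.87 and 11.5 FPKM in sgNAT10 HOS cells, against 18.58 and 22.05 FPKM in NC HOS cells (log2 change -0.80, adjusted p = 6.39e-06). ZNF226 had 5.85 and 4.78 FPKM in sgNAT10 HOS cells, against 8.93 and 10.02 FPKM in NC HOS cells (log2 change -0.73, adjusted p = 3.78e-05). ZNF595 (-0.72), ZNF92 (-0.69), ZNF280D (-0.68), ZNF544 (-0.65), ZNF232 (-0.62) and ZNF302 (-0.62) fell as well on the log2 scale, and 5 of the 8 carry KRAB. With a spread shared by both lines the calls of ZNF32 (adjusted p = 0.114), ZNF226 (0.063), ZNF595 (0.0565) and ZNF92 (0.0991) were lost. So were those of ZNF280D (0.0681), ZNF232 (0.121) and ZNF302 (0.104). ZNF32 rose in 143B, with 11.81 and 24.73 FPKM in sgNAT10 143B cells, against 5.19 and 8.23 FPKM in NC 143B cells.

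Set side by side, 23 ZNF genes rose in both lines, 26 fell in 143B and rose in HOS, 5 rose in 143B and fell in HOS, 1 fell in both and 60 passed in neither. The rises in both lines were 9.54% of the ZNF genes, against 3.39% of the 10655 genes tested in both lines, and the genes that fell in 143B and rose in HOS were 10.8%, against 15.7%. Of all those genes 3.63% rose in 143B and fell in HOS, 2.73% fell in both and 20.5% passed in neither. Of the 23, 16 were KRAB genes, and of the 26, 19 were genes without KRAB. The 241 include 38 genes that passed the limit in 143B through sgNAT10 alone and 12 that did so in HOS. Such genes had to be higher there, and these shares were not computed without them. Across the 241 genes the changes in the lines had a Pearson r of -0.26, against -0.24 across the 10655 genes tested in both, given as a description since genes are not independent replicates and each line has its own libraries.

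The mean of the changes in the lines was higher for 77 ZNF genes and lower for 14, where 13.1% of all genes tested in both lines were higher and 17.6% lower. KRAB genes made up 55 of the 77. Among the 195 ZNF genes that reached 1 FPKM in both labels of both lines, 42 were higher and 13 lower. Of those 42, 24 were KRAB genes, and the share of all such genes was not computed for the mean. Nor was a share of all genes computed with a library left out. ZNF281 led with a mean log2 change of 1.58 (SE 0.19, adjusted p = 0.00083), and had 12.79 and 13.05 FPKM in sgNAT10 HOS cells, against 8.81 and 7.74 FPKM in NC HOS cells. Its HOS call was lost with a spread shared by both lines (adjusted p = 0.141). ZNF827 (1.28), ZNF462 (1.20), ZNF426 (1.09), ZNF844 (1.06), ZNF850 (0.97), ZNF106 (0.95) and ZNF490 (0.93) followed, and ZNF844, ZNF850 and ZNF490 passed the limit in 143B through sgNAT10 alone. ZNF462, which is altered in Weiss-Kruszka syndrome, had 4.33 and 5.32 FPKM in sgNAT10 143B cells, against 0.88 and 1.42 FPKM in NC 143B cells, a call lost without sgNAT10 replicate 2 (adjusted p = 0.0756). In HOS it had 4.59 and 3.99 FPKM in the libraries labelled sgNAT10, against 1.87 and 1.61 FPKM in NC. ZNF133, a KRAB repressor, was the only gene that fell in each line with labels that did not overlap, with 0.85 and 1.29 FPKM in sgNAT10 143B cells, against 3.47 and 3.07 FPKM in NC 143B cells, and 3.76 and 4.15 FPKM in sgNAT10 HOS cells, against 5.02 and 5.36 FPKM in NC HOS cells (mean log2 change -0.69, adjusted p = 0.0045). The count of 77 was 48 without HOS NC replicate 2, and the 14 was 1 without that library or HOS sgNAT10 replicate 2.

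The change differed between the lines, as 143B minus HOS, for 57 ZNF genes upward and 67 downward, where 12.9% of all genes differed upward and 36.2% downward. KRAB genes were 44 of the 57, and genes without KRAB 47 of the 67. The median difference was 0.43 for KRAB genes and -0.45 for genes without KRAB, against -0.44 over all genes. The KRAB genes include 34 that passed the limit in 143B through sgNAT10 alone, and 11 that did so in HOS. Such genes had to be higher in sgNAT10 cells of that line. Among genes that reached 1 FPKM in both labels of both lines, 22 of 77 KRAB genes differed upward and 11 downward. Their median was 0.32. Of 111 such genes without KRAB, 11 differed upward and 46 downward, with a median of -0.46. Median-ratio scaling moved the split of the ZNF genes to 97 and 41. Of all 10655 genes tested in both lines, 2662 then differed upward and 2709 downward. Their median difference moved too, from -0.44 to 0.0019. Without HOS NC replicate 1 the ZNF counts were 32 and 39, and without HOS sgNAT10 replicate 1 they were 37 and 40. Without HOS sgNAT10 replicate 2 the upward ZNF count was 37, and without 143B NC replicate 2 it was 87.

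On chromosome 19, 28 of the 57 KRAB genes rose in 143B and 2 fell, with a median log2 change of 0.72, and 14 of the 60 KRAB genes elsewhere rose and 4 fell, with a median of 0.23. Of these, 27 on chromosome 19 and 7 elsewhere passed the limit through sgNAT10 alone. Over all genes tested in 143B, 12.9% rose and 25.4% fell. Among KRAB genes that reached 1 FPKM in both labels of both lines, 5 of 26 on chromosome 19 rose, with a median of 0.53, and 9 of 51 elsewhere rose and 4 fell, with a median of 0.18, where 9.86% of all such genes rose and 22.5% fell. Chromosome 19 KRAB transcripts also had the lower median GC content, at 43.8% against 47.1% elsewhere. The group of 22 ZNF genes from ZNF264 to ZNF446 (chr19:57191500-58481230, GRCh38), 18 of them KRAB, had 8 rises and 3 falls in 143B, where 7 of its genes passed through sgNAT10 alone, and 17 rises and 2 falls in HOS. The 7 genes from ZNF565 to ZNF850 (chr19:36182060-36772825), 5 of them KRAB, had 5 rises in 143B, where 5 passed through sgNAT10 alone, and 3 rises and 1 fall in HOS. The 9 genes from ZNF628 to ZNF444 (chr19:55476332-56160893) hold no KRAB gene and had 3 falls in 143B and 6 rises in HOS. Of all genes tested in HOS, 45.5% rose and 23.0% fell.

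Among ZNF genes of the ribosome and translation, ZNF593, an assembly factor of the large ribosomal subunit, had the highest mean level of all 241. It had 455.72 and 485.21 FPKM in sgNAT10 143B cells, against 229.08 and 140.29 FPKM in NC 143B cells (log2 change 1.39, adjusted p = 0.00699). In HOS it had 49.92 and 48.77 FPKM in the libraries labelled sgNAT10 and 50.38 and 53.51 FPKM in NC, and did not pass the test. ZNF598, described above, fell in 143B and had 28.82 and 28.24 FPKM in sgNAT10 HOS cells, against 18.71 and 23.04 FPKM in NC HOS cells (log2 change 0.44, adjusted p = 0.00149), but only 0.22 after median-ratio scaling (adjusted p = 0.0709) and 0.01 after the length and GC correction (adjusted p = 0.891). ZNF622, another assembly factor of the large subunit, and ZNF574, linked to the quality control of ribosome assembly, had log2 changes of -0.64 and -0.41 in 143B that did not pass. In HOS ZNF574 rose by 0.61 on the log2 scale, or 0.17 after the length and GC correction (adjusted p = 0.0771). The HOS change of ZNF622 passed at 0.23, and was 0.01 after median-ratio scaling (adjusted p = 0.954), 0.06 after the length and GC correction (0.415) and 0.15 after quantile normalization (0.19), with an adjusted p of 0.0971 under the replicate block and between 0.0918 and 0.382 without sgNAT10 replicate 1 or 2 or NC replicate 1. The highest levels after ZNF593 in 143B were those of ZNF511, with 254.17 and 319.65 FPKM in sgNAT10 cells and 239.06 and 165.18 FPKM in NC cells, and ZNF787, with 179.59 and 139.7 FPKM in sgNAT10 cells and 119.91 and 83.97 FPKM in NC cells, neither of which passed the test. ZNF511 overlaps TUBGCP2 on the opposite strand.

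The RNA-binding members ZNF346, ZNF326, ZNF638 and ZNF207 had log2 changes of -0.51, -0.03, -0.25 and -0.25 in 143B that did not pass, and in HOS ZNF346, which binds double-stranded RNA, rose by 0.56 on the log2 scale. That call was lost with a spread shared by both lines (adjusted p = 0.128 in HOS). ZNF638 fell by 0.29 there, and its change was -0.08 with equal sums (adjusted p = 0.489), with an adjusted p of 0.174 or 0.146 without sgNAT10 replicate 1 or 2. Of a list of transcription factors known mostly without KRAB, 24 were tested in 143B, and 5 rose (ZNF281, ZNF131, ZNF827, ZNF462 and ZNF292) and 4 fell (ZNF687, ZNF335, ZNF503 and ZNF516), against 12.9% of all 143B genes that rose and 25.4% that fell. In HOS 16 of 25 rose and 2 fell, against 45.5% and 23.0% of all HOS genes. ZNF292 passed the limit in 143B through sgNAT10 alone. After the length and GC correction the 143B changes of ZNF335 (-0.27, adjusted p = 0.208), ZNF503 (-0.23, 0.283) and ZNF516 (-0.23, 0.303) did not pass, and without sgNAT10 replicate 1 or 2 their adjusted p lay between 0.146 and 0.289. ZNF687, the gene of a familial Paget bone disease, had 10.81 and 10.73 FPKM in sgNAT10 143B cells, against 29.32 and 27.81 FPKM in NC 143B cells (log2 change -1.33, adjusted p = 0.00632), and overlaps PI4KB on the opposite strand. Its change in HOS passed at 0.28, and was 0.06 after median-ratio scaling (adjusted p = 0.609), 0.14 after quantile normalization (0.234) and -0.36 after the length and GC correction, with an adjusted p of 0.251 or 0.113 without sgNAT10 replicate 1 or 2. ZNF217, an oncogene of breast cancer, had 27.89 and 26.92 FPKM in sgNAT10 HOS cells, against 17.67 and 15.03 FPKM in NC HOS cells (log2 change 0.72, adjusted p = 1.32e-05). With a spread shared by both lines its adjusted p in HOS was 0.132. In 143B it had 0.90 and 2.03 FPKM in sgNAT10 cells and 2.72 and 5.6 FPKM in NC cells and did not pass (log2 change -1.05, adjusted p = 0.0582). ZNF143 and its relative ZNF76, activators of many promoters, did not pass in either line.

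Among KRAB genes with known targets, ZNF91, which silences SVA transposons, had 1.60 and 1.60 FPKM in sgNAT10 143B cells, against 0.60 and 0.67 FPKM in NC 143B cells (log2 change 0.67, adjusted p = 0.031). It passed the limit there through sgNAT10 alone, and the call was lost with equal sums (adjusted p = 0.0947), after the length and GC correction (log2 change 0.39, adjusted p = 0.185), without the intensity trend (0.0763) and without sgNAT10 replicate 1 (0.162) or 2 (0.224). In HOS it had 1.67 and 1.40 FPKM in the libraries labelled sgNAT10, against 2.57 and 2.07 FPKM in NC (log2 change -0.39, adjusted p = 0.00862), a call lost with equal sums (log2 change -0.25, adjusted p = 0.0688), with a shared spread (0.0806) and without sgNAT10 replicate 2 (0.0892) or NC replicate 1 (0.0868). ZNF274, which brings SETDB1 to ZNF genes themselves, had 0.59 and 0.82 FPKM in sgNAT10 143B cells and 1.29 and 3.66 FPKM in NC 143B cells and did not pass (adjusted p = 0.054), and rose in HOS to 10.92 and 10.07 FPKM in the libraries labelled sgNAT10, against 7.11 and 7.23 FPKM in NC, a call lost after quantile normalization (log2 change 0.20, adjusted p = 0.0924). It was also lost with a shared spread (adjusted p = 0.253). ZNF445 had 1.62 and 1.61 FPKM in sgNAT10 143B cells and 0.64 and 1.0 FPKM in NC 143B cells and did not pass (adjusted p = 0.0911).

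The partners through which KRAB proteins silence were given from a list of 27 genes, of which 26 were tested. In 143B 2 rose and 8 fell, with a median log2 change of -0.31 against -0.25 over all genes, of which 12.9% rose and 25.4% fell. TRIM28, which binds the KRAB domain, had 653.5 and 426.75 FPKM in sgNAT10 143B cells and 625.8 and 459.89 FPKM in NC 143B cells, and the labels overlapped. SETDB1 had 3.72 and 3.51 FPKM in sgNAT10 143B cells and 6.48 and 9.12 FPKM in NC 143B cells and did not pass (log2 change -0.92, adjusted p = 0.0644). Among the genes that fell were SUMO3 (log2 change -1.82), WIZ (-1.65), DNMT1 (-1.35), DAXX (-1.26), HDAC1 (-1.15), UHRF1 (-1.10) and SUMO2 (-0.90). The 2 that rose were ATRX, the chromatin remodeller (2.04), and CBX5, the heterochromatin protein (1.26). In HOS 14 of 26 (53.8%) rose and 10 (38.5%) fell, where 45.5% of all genes rose and 23.0% fell, and TRIM28 had 180.1 and 174.99 FPKM in the libraries labelled sgNAT10, against 98.09 and 125.11 FPKM in NC (log2 change 0.68, adjusted p = 2.14e-05). Of 4 tested genes of the HUSH silencing complex and its partners, 1 rose in 143B, and 3 rose and 1 fell in HOS. The shares of all genes are those given above. MPHOSPH8 rose in both lines, with 14.49 and 17.84 FPKM in sgNAT10 143B cells, against 3.67 and 4.99 FPKM in NC 143B cells. FAM208A and MORC2 rose in HOS only, and PPHLN1 fell there (log2 change -0.54) and did not pass in 143B. Any part of these changes in those of the KRAB genes was not tested.

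Zinc finger genes with other symbols were few. In 143B, where 12.9% of all genes rose and 25.4% fell, 4 of 13 ZFP genes rose and 2 fell, 1 of 9 ZSCAN genes rose and 1 fell, 3 of 4 ZKSCAN genes rose, and 4 of 29 ZBTB genes rose and 7 fell. In HOS, where 45.5% of all genes rose and 23.0% fell, 7 of 14 ZFP genes rose and 3 fell, 5 of 14 ZSCAN genes rose and 4 fell, 3 of 7 ZKSCAN genes rose, and 25 of 36 ZBTB genes rose and 4 fell.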

How the data were processed

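Polyadenylated RNA of 8 libraries was measured, 2 for each label in each line. The authors deposited FPKM values, 1 table per line. Per the submitters' processing notes, Bowtie2, RSEM and DESeq2 were used with GRCh38, their roles and versions unstated. The gene annotation used is not stated either. Read counts and depth are unknown. From the FPKM values, log2(FPKM + 1) was computed, a scale that understates changes of low genes, and limma 3.58.1 (R 4.3.3) tested the genes that reached 1 FPKM in 2 or more of a line's 4 libraries (intensity trend, 2-sided, Benjamini-Hochberg over all genes, threshold 0.05). The script was tested on simulated data. Each line was fitted alone, and a fit of all 4 groups together, over the genes tested in both, gave the mean of the changes and their difference. For 1 value in 2 libraries against 2, the smallest p of an exact permutation test is 0.33.

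The ZNF genes and the gene lists were chosen with earlier results of these data known. Named genes were the 8 largest rises and falls in each line and over the lines together (past the threshold, with labels that did not overlap), the 5 largest differences of each sign between the lines, the 10 highest levels, and the genes of the role and corepressor lists. No protein table was used here, so KRAB boxes and fingers, planned from protein sequences, were found by pattern in translated coding sequences of GENCODE 29 (GRCh38), which also gave transcript length, GC content and position. A box that departs from the pattern is missed. Start regions came from RefSeq (GRCh38.p14), which held 209 of the 241 genes. Of the 241 genes, 50 overlap another listed gene, 37 of them one on the opposite strand, and near-identical copies may share reads. Deviations of same-numbered libraries correlated at 0.61 in 143B and -0.11 in HOS, and with 2 pairs a line the numbers were not taken to pair libraries. Alternatives were other pseudocounts, limits, scalings, spreads, a replicate block, a length and GC correction, and leaving out each library.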

Additional observations from a re-analysis of the deposited data

Results flagged for a closer look

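The change in 143B was set against the change in HOS by the difference of both in 1 limma fit, which tests that difference itself. It differed upward in 57 ZNF genes and downward in 67, where 12.9% of all genes differed upward and 36.2% downward. Among the 195 ZNF genes that reached 1 FPKM in both labels of both lines, 33 differed upward and 61 downward. The 5 largest differences in each direction are given here on the log2 scale. Upward, ZNF131 differed by 2.11 (adjusted p = 0.00433), ZNF32 by 2.07 (0.00587), ZNF791 by 1.99 (0.00141), ZNF281 by 1.98 (0.00246) and ZNF34 by 1.52 (0.00169). ZNF281 rose in both lines, ZNF32 rose in 143B and fell in HOS, and the others rose in 143B and did not pass in HOS. ZNF34, a KRAB gene, had 4.90 and 4.94 FPKM in sgNAT10 143B cells, against 0.84 and 1.59 FPKM in NC 143B cells, and 2.16 and 1.84 FPKM in sgNAT10 HOS cells, against 2.07 and 2.25 FPKM in NC HOS cells. Downward, ZNF697 differed by -3.35 (adjusted p = 0.000316), ZNF672 by -2.40 (0.000348), ZNF646 by -2.28 (0.000205), ZNF609 by -2.27 (0.000983) and ZNF385A by -2.20 (0.000966), and all 5 fell in 143B and rose in HOS. ZNF609 had 2.11 and 2.30 FPKM in sgNAT10 143B cells, against 4.43 and 7.99 FPKM in NC 143B cells, and 15.64 and 13.56 FPKM in sgNAT10 HOS cells, against 6.18 and 5.94 FPKM in NC HOS cells.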

How the results depend on the processing

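The number of reads behind each FPKM is unknown, and many KRAB genes lie near the limit of 1 FPKM, which bounds what their counts can show. In 143B the KRAB median lay above that of genes without KRAB under every scaling run, with the genes that passed through sgNAT10 alone included. In HOS it lay below, at 0.20 against 0.28, but at 0.05 against 0.04 after the length and GC correction. The HOS medians also include genes that passed there through sgNAT10 alone. The cause of each shift below was not tested. Counts are given as ZNF genes higher and lower. Those with 1 library left out have no share of all genes beside them, as none was computed.

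In 143B, where 56 and 34 were called, a limit of 5 FPKM left 11 higher, equal sums gave 36, median-ratio scaling 97, quantile normalization 106, the length and GC correction 98, the same with the replicate block 130, the replicate block alone 99 and 67, and a spread shared by both lines 91 and 56. Leaving out 1 library gave 22 to 89 and 6 to 46. Of all 143B genes, 12.8% were higher and 29.8% lower at the limit of 5 FPKM. The shares were 7.85% and 32.7% with equal sums and 20.7% and 22.3% with median-ratio scaling. They were 24.5% and 24.9% after quantile normalization and 26.6% and 27.6% after the length and GC correction. With the block added to that correction they were 31.4% and 33.1%, with the block alone 24.0% and 43.0%, and with a shared spread 16.6% and 35.6%. In HOS, where 113 and 33 were called, the limit of 5 FPKM gave 57 higher, equal sums 14 lower, median-ratio scaling 72 and 56, quantile normalization 60 and 63, the length and GC correction 68 and 60, the same with the replicate block 72 and 61, and a shared spread 42 and 2. Leaving out 1 library gave 83 to 114 and 18 to 40. The replicate block alone gave 111 and 33 in HOS and a crossed pairing 114 and 35. Of all HOS genes, 45.9% were higher and 27.0% lower at the limit of 5 FPKM. The shares were 59.2% and 14.2% with equal sums and 31.5% and 33.8% with median-ratio scaling. They were 32.5% and 31.8% after quantile normalization and 31.6% and 33.5% after the length and GC correction. With the block added to that correction they were 32.3% and 34.2%, with the block alone 44.0% and 21.9%, and with a shared spread 14.7% and 2.83%.

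For the mean over both lines, called in 77 and 14, the limit of 5 FPKM gave 9 and 9, quantile normalization 22 lower, the length and GC correction 31 lower, the same with the replicate block 34 lower, and the replicate block alone 35 lower. Of all genes, 12.2% were higher and 19.6% lower at the limit of 5 FPKM, and 20.2% were lower after quantile normalization. The lower share was 29.8% after the length and GC correction, 32.8% with the block added and 32.6% with the block alone. Leaving out 1 library gave 48 to 101 and 1 to 31. For the difference between lines, called in 57 and 67, the limit of 5 FPKM gave 9 and 44, equal sums 27 higher, median-ratio scaling 97 and 41, quantile normalization 109 and 37, the length and GC correction 96 and 29, and the same with the replicate block 111 and 34. Leaving out 1 library gave 32 to 87 and 39 to 80. Of all genes, 15.1% were higher and 38.2% lower at the limit of 5 FPKM, and 5.87% and 48.4% with equal sums. Median-ratio scaling gave 2662 higher and 2709 lower among all 10655 genes. The shares were 26.5% and 28.9% after quantile normalization and 27.5% and 30.7% after the length and GC correction. Adding the block to that correction gave 30.2% and 33.4%.

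Chosen after seeing the data, a count over the 195 genes with at least 1 FPKM in both labels of both lines gave 24 higher in 143B, 42 higher in the mean and 33 higher in the difference, and genes with a mean of at least 2 FPKM gave 21 higher in 143B. Of all genes that met these limits, 9.86% and 11.0% were higher in 143B. The shares of all such genes were not computed for the mean and the difference.

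Medians changed sign as follows. Over all ZNF genes, the 143B median was -0.402 at 5 FPKM and -0.0492 with equal sums, and ran from -0.0377 (without NC replicate 1) to 0.449 with 1 library left out. The HOS median was -0.0021 after quantile normalization. The difference was -0.876 at 5 FPKM and -0.293 with equal sums, and ran from -0.166 (without 143B NC replicate 1; -0.0058 without 143B sgNAT10 replicate 2) to 0.288 with 1 library left out. For KRAB genes, the median at 5 FPKM was -0.044 in 143B, -0.0542 in HOS and -0.0261 in the mean, and -0.0581 in HOS after quantile normalization. For genes without KRAB, the 143B median was 0.0349 after quantile normalization and 0.137 after the length and GC correction with or without the replicate block. Their mean over both lines was -0.0311 with equal sums, and ran from -0.0316 (without 143B NC replicate 1; -0.0077 without 143B sgNAT10 replicate 2 and -0.0138 without HOS sgNAT10 replicate 1) to 0.0702 with 1 library left out.

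Of 3201 alternative values for 72 named genes, 2829 kept their direction and side of the threshold, 171 lost it, 189 gained it and 12 reversed. The length and GC correction, with or without the replicate block, turned HOS changes to 0.157 for ZNF131, -0.0173 for ZNF335, -0.228 for ZNF592 and -0.361 for ZNF687, and the 143B change of ZNF581 to 0.485, and with the block that of ZNF574 to 0.445. With 1 library left out, the HOS change of ZNF358 ran from -0.229 (without NC replicate 1) to 0.172 (without NC replicate 2).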
